A study of Mus musculus with 81 samples.

Results

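The SR and hnRNP genes encode the best known families of regulators of pre-mRNA splicing, and they are described here cell by cell in the embryonic mouse pancreas. Every gene whose symbol starts with Srsf and a digit, or with Hnrnp, was taken, which gave 29 of the 22869 genes in the table: 11 SR genes and 18 hnRNP genes. A gene with several transcript rows was represented by the row of highest mean over the cells. The tissue was embryonic pancreas of wild-type CD1 mice on embryonic day 13.5, dissociated with trypsin. A microfluidic device took up the cells one by one, SMARTer chemistry made full-length cDNA from each, and the Nextera XT libraries were each read in 2 lanes. The labels give 1 group of 81 cells and name no animal. The cells were therefore treated as 1 sample, no p-value was computed, and every SD is a spread over cells.

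SR proteins carry RNA-binding domains and a tail rich in serine and arginine. They bind exons, recruit the splice site recognition factors, and mostly promote inclusion of the exon they bind, and kinases of the SRPK and CLK families phosphorylate the tail. The hnRNP proteins coat nascent RNA, and several of them silence exons or splice sites, so that the balance of both families sets many splicing choices. Many of these genes control their own output through a poison exon, a stretch with an early stop codon whose inclusion sends the mRNA to nonsense-mediated decay.

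The table holds RPKM values, that is, reads scaled by transcript length and library depth. From the worth of 1 read the depth was estimated at a median of 3.53M reads, and 77 cells had no fewer than 1.66M. Depth was far lower in C43 (420K reads), C94 (197K), C61 (72.3K) and C3 (19.8K), called shallow here, and results that rest on them are given with and without them. Marker lists divided the cells into 65 stromal-like, 5 epithelial-like, 5 macrophage-like, 2 endocrine-like and 2 endothelial-like cells, and 2 cells were left unnamed. Such a class is a range of marker counts, not a proven type. The epithelial-like cells had 6 to 10 of 12 epithelial markers at 10 RPKM and the macrophage-like cells 5 to 10 of 11 macrophage markers, but 2 to 5 of 14 stromal markers reached that level in the epithelial-like cells and 2 to 6 in the macrophage-like cells. Summed over the stromal list, the markers had 164.7 to 1254 RPKM in stromal-like, 67.2 to 386.6 in epithelial-like and 47.2 to 565.6 RPKM in macrophage-like cells, and Lum, Nkx2-5 and Foxf1a were at 0 in every cell of the latter pair of classes.

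Srsf3 and Srsf7 were read with and without their poison exon. Both genes have a coding row and a non-coding row in the table, and the rows of each pair share their start and end. Srsf7 has 5 rows, and the coding row of its pair is not the row of highest mean, which gives its levels outside the added exon values. The matching GENCODE vM21 models on GRCm38 differ inside by this added exon alone, and otherwise in how far their first and last exons reach. Srsf3, the shortest SR protein and an adaptor for mRNA export, carries an added exon of 456 bases, exon 4 of 7 of a model annotated for nonsense-mediated decay, at chr17:29039454-29039909 on the plus strand. Srsf7, an SR protein with a zinc knuckle, carries one of 460 bases, exon 4 of 9 of such a model, at chr17:80204622-80205081 on the minus strand. The sequences show how the reading frame ends: each starts with the last 60 bases of the upstream exon, and the first of each pair runs on into the added exon up to its stop codon, which is in capitals, while the other runs on into the next coding exon for 31 bases.
Srsf3 with the added exon: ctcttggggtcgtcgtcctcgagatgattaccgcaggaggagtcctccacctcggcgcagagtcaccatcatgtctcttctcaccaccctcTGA
Srsf3 coding: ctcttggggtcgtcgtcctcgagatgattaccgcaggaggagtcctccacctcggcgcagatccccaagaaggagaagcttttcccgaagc
Srsf7 with the added exon: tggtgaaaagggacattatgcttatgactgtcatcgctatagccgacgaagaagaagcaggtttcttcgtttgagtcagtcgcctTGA
Srsf7 coding: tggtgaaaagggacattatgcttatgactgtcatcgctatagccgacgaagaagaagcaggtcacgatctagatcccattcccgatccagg
In the added exon of Srsf3 the frame runs through 31 bases before TGA, and in that of Srsf7 through 25 bases.

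Most members were present in nearly every cell. At the detection level of 1 RPKM, 20 of the 29 genes were found in at least 90% of cells, against 4.35% of the 15464 genes above 0 in any cell. The genes found in all 81 cells were Hnrnpa2b1, Srsf3, Hnrnph1, Hnrnpu, Srsf11, Hnrnpc, Hnrnpk and Hnrnpl. An exact Clopper-Pearson interval puts their share at 95.5% or more, which covers counting error only. A cell had between 17 and 28 of the 29 genes at 1 RPKM, with a median of 25, and the members took between 0.359% and 1.55% of its summed RPKM, with a median of 1.09%. The lowest share was that of C31, a macrophage-like cell, and the highest that of C12, a stromal-like cell. The median over members of the mean log2(RPKM + 1) was 5.14, against 0.63 over all genes above 0.

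Hnrnpa2b1, which binds pre-mRNA and sorts RNA for transport and packaging (mm9 chromosome 6, 51410931 to 51419893), had the highest level. It ran from 9.06 RPKM in C18 over a median of 316.6 to 789 RPKM in C79, and 77 cells had at least 100 RPKM. Its mean log2(RPKM + 1) was 8.21 ± 0.95 (SD over 81 cells), rank 38 of all genes, so that its spread was among the narrowest of the members.

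Among the SR genes, Srsf3 led with 1.76 RPKM in C31, a median of 176.6 and 410.2 RPKM in C92. Srsf11, whose protein contacts the splice site recognition machinery, spanned 4.34, 126.6 and 690.1 RPKM as lowest, median and highest value. Srsf7 ran from 0.105 RPKM in C8 to 559.3 RPKM in C95, with a median of 132.9. Thus Srsf7, at nearly the same median as Srsf11, was below 1 RPKM in C8, C54, C79 and C86 while Srsf11 was not below 4.34 RPKM anywhere. Srsf2, a factor of nuclear speckles, had a lowest value of 0.472, a median of 114.5 and a highest value of 530.5 RPKM. It was below 1 RPKM in C55 and C96 and highest in C13, an unnamed cell.

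Among the other hnRNP genes, Hnrnph1, which binds runs of G, went from 2.02 RPKM in C35 over a median of 161.7 to 575.2 RPKM in C33. Hnrnpu, a large RNA- and DNA-binding protein of the nuclear scaffold, was also lowest in C35, at 1.53 RPKM, with a median of 149 and a highest value of 494 RPKM. Hnrnpc, which binds runs of U and packages nascent RNA, had 4.01, 108.7 and 382.5 RPKM as lowest, median and highest value. None of these genes was missing from a cell, although 1 read in 1 kb is worth 50.5 RPKM in C3, so that a value in that cell can rest on few reads. Hnrnpk, a KH-domain protein that binds runs of C, spanned 2.25, 104.1 and 427.8 RPKM. Hnrnpl, which binds CA repeats, spanned 7.08, 57.4 and 222.1 RPKM and had the narrowest spread of all members, an SD of 0.93 on the log2 scale.

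The order of the members by mean was gradual below Hnrnpa2b1. The largest gap between neighbours in the order was 0.99 log2 units, between Hnrnpa2b1 and Srsf3, and the next largest was 0.83, between Hnrnpul2 and Srsf12, while the SD over cells ran from 0.93 to 2.73, so that only the first gap was even as large as the smallest SD. Among members with a mean of at least 5, the median SD was 1.41 over 15 genes, against 1.70 over the 492 genes at that level in the whole table. The median SD was 1.76 for the 7 SR genes of that level and 1.32 for the 8 hnRNP genes.

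**Figure D1:**
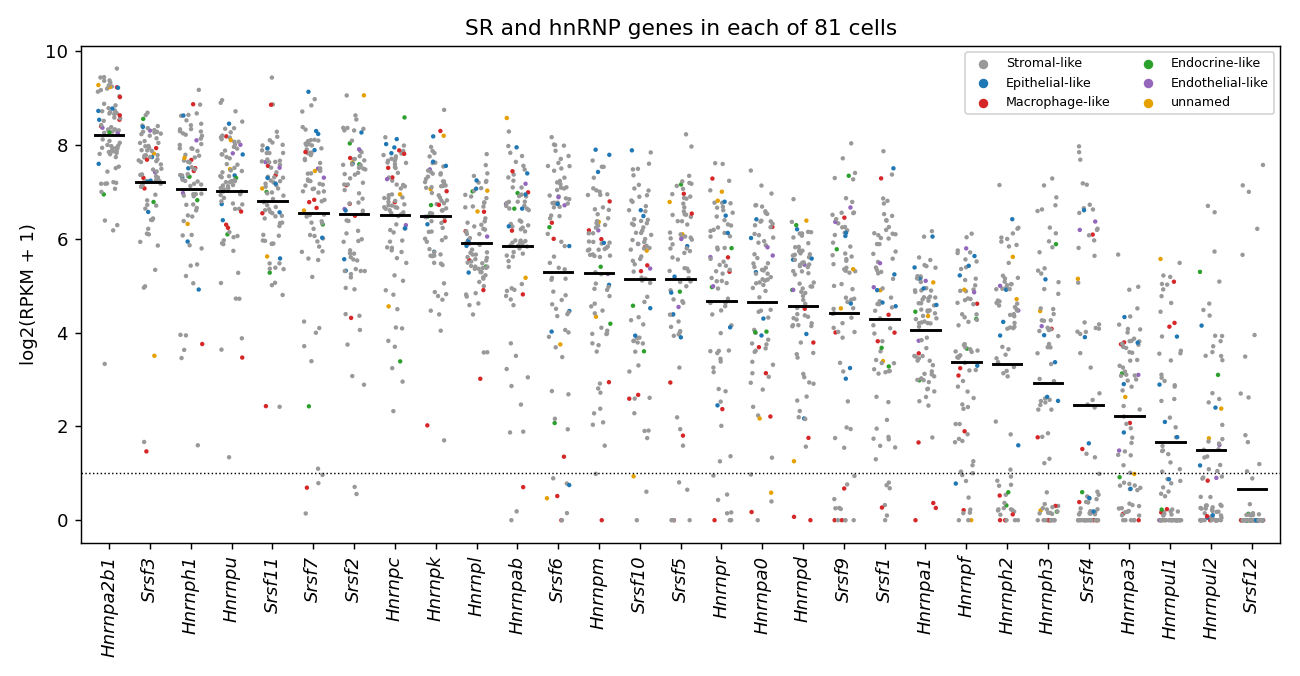
Level of each SR and hnRNP gene in each of 81 cells as log2(RPKM + 1), in order of the mean (black bar); each point is 1 cell, coloured by class, and the dotted line marks 1 RPKM. Means fall from 8.21 for Hnrnpa2b1 to 0.67 for Srsf12. Genes from Hnrnpab on, and also Srsf7 and Srsf2, are at or near 0 in some cells and above 5 in others.

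The middle of the order held genes with a wide range in all but a few cells. Hnrnpab was above 1 RPKM in 78 cells, Hnrnpm in 79, Srsf10 in 78, Srsf5 in 75, Hnrnpd in 79, Hnrnpa0 in 76, Hnrnpa1 in 78 and Srsf1 in 74. Srsf6, an SR protein of the classical group, reached 1 RPKM in 73 cells and Hnrnpr also in 73. Srsf9 did so in 68 cells, Hnrnpf in 70, Hnrnph2 in 58, Hnrnph3 in 56 and Hnrnpa3 in 54. The median of Srsf6 was 62.8 RPKM, and C3 and another cell were listed at 0.

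The remaining 4 genes were below 1 RPKM in most cells. Srsf4, a long SR protein, reached 1 RPKM in 39 cells (48.1%, 95% interval 36.9% to 59.5%), with a median of 0.523 RPKM and 249.2 RPKM in C17. Hnrnpul1, an hnRNP U-like protein, also reached it in 39 cells, with a median of 0.832 and a highest value of 46.4 RPKM in C45. Hnrnpul2, its relative, did so in 37 cells (45.7%, 34.6% to 57.1%) and had 102.9 RPKM in C46. Srsf12 (mm9 chromosome 4, 33295966 to 33320315) was the rarest, with 13 cells (16%, 8.83% to 25.9%), and it was listed at 0 in 58 cells. Its highest values were 189.1 RPKM in C67, 139.7 in C11 and 126.8 in C61, and the values in C67 and C11 were above the median of Srsf7. C61 is shallow, and 1 read in 1 kb there is worth 13.8 RPKM. So genes that were below 1 RPKM in most cells reached the levels of the common members in a few, at least 100 RPKM in 6 cells for Srsf4 and in 3 for Srsf12.

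Part of the sequence of some members occurs elsewhere in the transcriptome, which makes their levels uncertain where the counting could split reads. For 28 members a transcript was at hand, and of its 50-base windows 66.8% of Hnrnpf, 65.4% of Srsf4, 54.1% of Hnrnpa1, 40.6% of Hnrnpk and 35.2% of Srsf2 were found in transcripts of other genes. For Srsf2 these were the overlapping genes Mettl23 and Mfsd11. Of genes described in more detail below, Srsf3 had 31.5% of its windows in transcripts of other genes, Hnrnph2 30.9%, Srsf10 20.8% and Srsf7 2.24%. No such window was found for Hnrnpa0, Hnrnpu, Hnrnpm, Srsf6, Srsf9 and Srsf12.

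Correlations between members across cells were weak. Pearson's r of log2(RPKM + 1) over 81 cells had a median of 0.065 over the 406 pairs of members and of 0.027 over pairs of other genes at 1 RPKM in at least 50% of cells. The highest value was 0.52, for Hnrnpu and Srsf3, where Spearman's rho was 0.23. The lowest was -0.32, for Hnrnpc and Srsf12. Srsf3 and Srsf7 had -0.27, with a Spearman's rho of -0.39. Of the 406 pairs 3 exceeded 0.4 (0.739%), against 0.0883% of the pairs of other genes. Besides Hnrnpu with Srsf3 these were Hnrnpu with Srsf9 at 0.44 and Hnrnpa1 with Hnrnpd at 0.41. Without the shallow cells 4 pairs exceeded 0.4: Hnrnpa1 with Hnrnpd fell to 0.33, while Hnrnpa1 with Hnrnpl had 0.46 and Hnrnph1 with Srsf3 0.41. With cells rescaled by size factors the medians were 0.024 for members and 0.014 for the other genes. The points share the depth of their library, and Hnrnpu had an r of 0.40 with the number of genes at 1 RPKM, Srsf3 one of 0.38.

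The epithelial-like cells had several members at higher levels than the stromal-like cells. Against the 65 stromal-like cells, the mean log2(RPKM + 1) of 6 of the 29 members was at least 1 higher in the 5 epithelial-like cells, against 15.8% of all genes, and that of 1 member was at least 1 lower, against 4.86%. Among genes at 1 RPKM in at least 50% of cells the shares were 6 of 25 members, against 28.2%, and 1 of 25, against 11.7%, so that the members' count of higher genes was near that of genes like them. The members apart were Hnrnpm, Srsf7, Hnrnpab, Hnrnpc, Srsf1 and Hnrnpa1 on the high side and Srsf6 on the low side. The epithelial-like cells had an estimated median of 4.55M reads and 4669 genes at 1 RPKM. In the stromal-like cells these were 3.53M reads and 4039 genes, and the part of this in the result was not tested.

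Hnrnpm, which binds GU-rich RNA and takes part in the splicing switches between epithelial and mesenchymal cells, had 59.2, 31.3, 170.5, 237.1 and 219.8 RPKM in C43, C47, C82, C91 and C95, against a median of 49.7 RPKM and a highest value of 201.9 RPKM in stromal-like cells. The difference was 1.59. C91 and C95 lay above every stromal-like cell and C47 below the stromal median. Srsf7 had 235.7, 299.5, 312.7, 63.9 and 559.3 RPKM in the same cells, against a stromal median of 132.9 RPKM, and differed by 1.39. Of these, C91 was below the stromal median and C95 above the stromal maximum of 501.4 RPKM.

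Hnrnpab, with 121.9, 98.7, 245.6, 75.8 and 166.8 RPKM there, was above the stromal median of 61.3 RPKM in all 5 and differed by 1.33. Hnrnpa1, the prototype exon silencer, was also above the stromal median of 18.7 RPKM in all 5, with 23 to 65 RPKM and a difference of 1.07. Hnrnpc and Srsf1, the prototype SR protein, were above it in 4 of 5 cells, with differences of 1.26 and 1.14. Srsf6 differed by -1.28, with 56.4, 21, 15.2, 105.9 and 0.681 RPKM against a stromal median of 88.3. Every one of these 7 genes overlapped in range with the stromal-like cells.

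Without the shallow cells, which leaves 4 epithelial-like and 63 stromal-like cells, 10 members were at least 1 higher, against 16.5% of all genes, and 1 was lower, against 6.2%. Among genes at 1 RPKM in at least 50% of cells 9 of 25 members were then higher, against 29.1%, and 1 was lower, against 14%. The additional ones were Hnrnpr (1.38), Hnrnph2 (1.31), Hnrnpul1 (1.08) and Srsf10 (1.04), and Srsf6 differed by -1.72. Without C43 alone 11 were higher, and without C95 alone none was lower. With each cell rescaled by a size factor from the widely detected other genes, 3 members were higher and 1 was lower. That rescaling moved the median difference of all genes at 1 RPKM in at least 50% of cells from 0.36 to 0.14, and that of the members from 0.47 to 0.19.

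The macrophage-like cells had fewer of the members at 1 RPKM, between 17 and 25 per cell with a median of 19, while the stromal-like cells had 20 to 28 with a median of 25. Against the stromal-like cells, 2 members were at least 1 higher in the mean log2(RPKM + 1), against 9.93% of all genes, and 9 were at least 1 lower, against 11%. Among genes at 1 RPKM in at least 50% of cells 8 of 25 members were lower, against 31.8%, and 1 was higher, against 12.4%, so that with all cells the share of lower members was close to that of genes like them. The genes lower were Hnrnph2, Hnrnpa1, Srsf6, Hnrnpd, Srsf9, Hnrnph3, Hnrnpa0, Srsf5 and Hnrnpul2.

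Hnrnph2, a relative of Hnrnph1 on the X chromosome (mm9 chromosome X, 131135825 to 131141593), was listed at 0 in C2, C3 and C31 and had 0.0895 and 0.439 RPKM in C36 and C54, while the stromal-like cells had a median of 17.4 and a highest value of 140.2 RPKM. None of the 5 cells reached 1 RPKM, and 49 of 65 stromal-like cells did. The difference was -3.37. Its relative Hnrnph1 differed by -0.01 between these classes.

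Hnrnpa1 had 2.15, 0, 0.289, 10.8 and 0.199 RPKM in C2, C3, C31, C36 and C54, all below the stromal median of 18.7 RPKM, and differed by -2.99. The lowest stromal-like cell had 2.39 RPKM, so that C36 alone of the 5 overlapped with the stromal range. Hnrnpd, also called AUF1, which binds AU-rich elements and directs mRNA decay, had 21.7, 0, 2.37, 12.8 and 0.0506 RPKM, again all below the stromal median of 30.6 RPKM, and differed by -2.71. The ranges of Hnrnpd overlapped in C2, C31 and C36. Srsf6, with 1.56, 0, 0.428, 79.98 and 62.8 RPKM, was split between 3 cells near 0 and 2 near the stromal median, and differed by -2.80. The differences of the remaining genes were -2.21 for Srsf9, -1.82 for Hnrnph3, -1.73 for Hnrnpa0, -1.56 for Srsf5 and -1.32 for Hnrnpul2. Srsf3 was just inside the limit.

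Hnrnpc was higher, with 108.7, 181.1, 157.1, 234.7 and 223 RPKM, above the stromal median of 100.9 RPKM in all 5 cells and different by 1.09. Hnrnpul1 differed by 1.16, with values of at least 16.4 RPKM in C2, C3 and C36 and below 0.2 RPKM in C31 and C54. Without the shallow cells 14 members were lower, against 12.5% of all genes, and 1 was higher, against 11.1%. Among genes at 1 RPKM in at least 50% of cells 12 of 25 members were then lower, against 35%, and 1 was higher, against 13.6%. The count of lower members also moved with single cells: it was 15 without C3 and 14 without C2, while the count of higher members was 1 without either of these and 0 without C36. The median difference of the genes at 1 RPKM in at least 50% of cells was -0.45 and became -0.25 after rescaling by size factors, with the same counts of 2 higher and 9 lower members. The macrophage-like cells had an estimated median of 2.88M reads and 3341 genes at 1 RPKM, against 3.53M reads and 4039 genes in the stromal-like cells, and the part of this in the result was not tested.

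**Figure D2:**
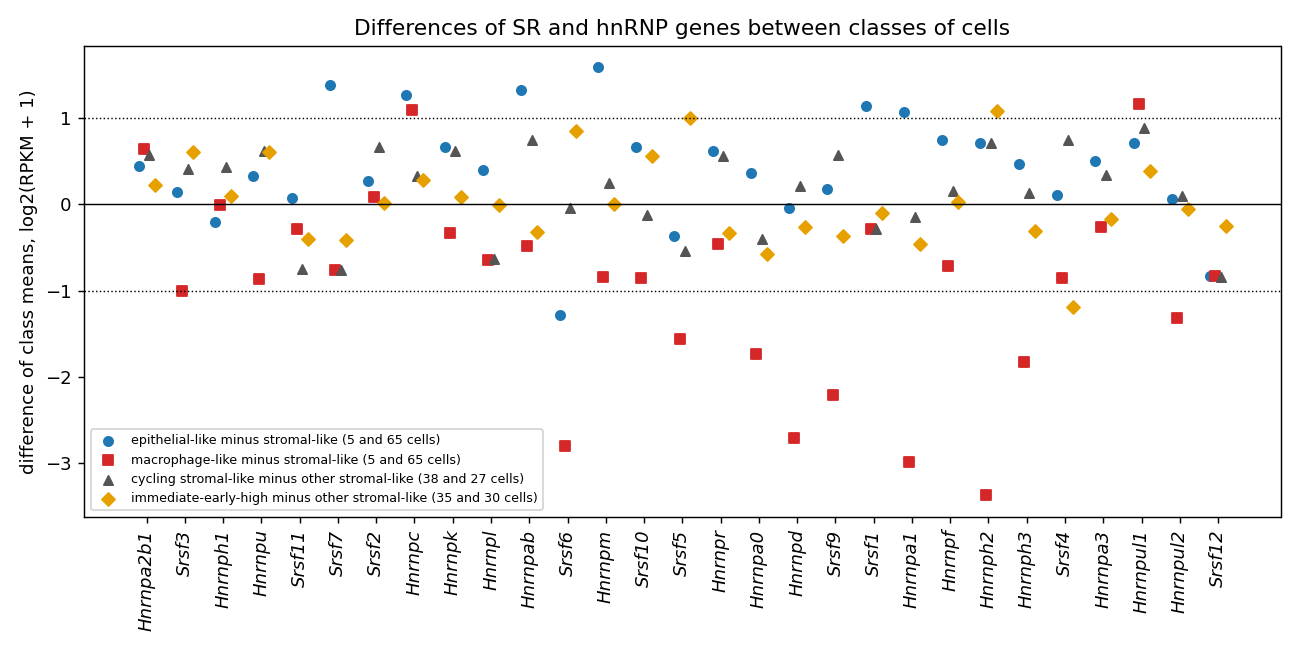
Difference of class means of log2(RPKM + 1) for each SR and hnRNP gene, in order of the mean level, for 4 comparisons with the number of cells in the legend; dotted lines mark a difference of 1 in either direction. Most points of the comparisons within stromal-like cells lie inside the lines, and the lowest points are Hnrnph2 and Hnrnpa1 in macrophage-like cells, at -3.37 and -2.99.

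The endocrine-like class has C24 and C56 only. Relative to the stromal-like cells, 4 members were at least 1 higher, against 21.4% of all genes, and 6 at least 1 lower, against 10.5%. Of the genes at 1 RPKM in at least 50% of cells, 3 of 25 members were higher, against 31.9%, and 4 were lower, against 21.8%, so that the members were not lower more often than genes like them. Srsf2 had 260.3 and 190.8 RPKM in C24 and C56, against a stromal median of 108.1, and Srsf9 had 53.7 and 161 RPKM, against 30.8. Hnrnpul2, at 38.2 and 7.56 RPKM, differed by 2.69, while its stromal median was 0.411 RPKM. Hnrnph2 was again near 0, at 0.244 and 0.511 RPKM, and Srsf7 was at 4.38 and 77.9 RPKM, both below its stromal median. Hnrnph2 was thus below 1 RPKM in all 7 macrophage-like and endocrine-like cells. The remaining genes apart were Hnrnpab, higher by 1.1, and Srsf4 (-2.16), Hnrnpul1 (-1.49), Srsf6 (-1.48) and Srsf10 (-1.13), all lower. For Srsf10 this holds for the row of highest mean only. Its other row, described below, had 17.2 RPKM in C24 and 211.9 RPKM in C56, against a stromal median of 24.5 RPKM. With the rows of each gene summed, 4 members were higher and 4 lower. When either cell was left out, the class was 1 cell, and the counts of higher and of lower members both changed.

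Within the stromal-like cells the members differed little between cycling and other cells. Cycling cells were those with at least 5 of 25 genes of the G2 and M phases at 10 RPKM, 38 of 65, and 9 cells had 3 to 6 of these genes. None of the 29 members was at least 1 higher, against 4.36% of all genes, and none was at least 1 lower, against 0.763%. Among genes at 1 RPKM in at least 50% of cells 0 of 25 members were higher, against 12.2%, and 0 were lower, against 1.44%. The median difference of the members was 0.25, and it was also 0.25 over all genes at 1 RPKM in at least 50% of cells. The estimated median depth was 3.88M reads in cycling and 3.33M in other stromal-like cells, and its part was not tested.

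The other lists of splicing genes are given here for their own values, as a difference from the members was not tested. In the core spliceosome list 5 of 35 genes were at least 1 higher in cycling cells, against 4.36% of all genes, and none was lower. All 5 are among the 24 core genes at 1 RPKM in at least 50% of cells, where the share of all genes was 12.2%. These were Snrpd3 (2.41) and Snrpb (1.79), proteins of the Sm ring, Prpf8 (1.83), the central scaffold of the spliceosome, Sf3b3 (1.17) and Snrpa1 (1.12). Snrpd3 had a median of 64.6 RPKM in cycling and 2.64 RPKM in other stromal-like cells. Of 19 hnRNP proteins of other symbols only Ptbp1, a repressor that binds pyrimidine tracts, was apart, by 1.59, 1 of the 14 found in at least 50% of cells. None of the 20 SR-related genes and SR kinases was apart in cycling cells, and the highest was Srpk1 with 0.88. Of the genes higher in cycling cells, Ptbp1 (1.44) and Snrpa1 (1.12) also differed between cells 1 to 48 and cells 49 to 96. Both were higher in cells 1 to 48, over all classes, and the part of cell number in the cycling difference was not tested.

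Stromal-like cells with at least 8 of 20 immediate early genes at 10 RPKM, 35 of 65, were compared with the rest, since dissociation is known to induce such genes. At least 1 higher was 1 member, Hnrnph2 with a difference of 1.09, against 1.73% of all genes, and at least 1 lower was Srsf4 with -1.19, against 1.1%. When only genes at 1 RPKM in at least 50% of cells were counted, 1 of 25 members was higher, against 4.82%, and 0 were lower, against 2.81%. Without the shallow cells none was higher, against 1.85%, and none lower, against 1.2%. Of the 65 cells, 19 had a count of 7 or 8 genes, right at the division, so that this comparison splits a continuous range.

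Among splicing genes outside both families, 10 of 35 core spliceosome genes were at least 1 higher and 1 was lower in the epithelial-like cells, led by Prpf8 (2.19) and Eftud2 (2.03). Of the 24 core genes found in at least 50% of cells 7 were higher, against 28.2%, and 0 lower, against 11.7%. Of 20 SR-related genes and SR kinases 6 were higher, against 15.8% of all genes, and 2 lower, against 4.86%. Of the 16 found in at least 50% of cells 4 were higher, against 28.2%, and 2 lower, against 11.7%. Srpk1, an SR kinase, had a median of 51.4 RPKM in epithelial-like and 4.15 RPKM in stromal-like cells, and Srek1 differed by -2.23. Esrp1, an epithelial splicing regulator that is also one of the epithelial markers, reached 1 RPKM in 3 of the 5 epithelial-like cells and in 0 of 65 stromal-like cells; as it helped to name the class, this is no finding.

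In the macrophage-like cells 11 of 35 core spliceosome genes were at least 1 lower and 1 was higher. All 11 are among the 24 found in at least 50% of cells, where 31.8% of all genes were lower. Snrpd3 differed by -3.47 and Snrpg by -2.31, and Tra2b, an SR-like splicing activator, had a median of 3.08 RPKM against 92.4 RPKM. Between cells 1 to 48 and cells 49 to 96, over all classes, Tra2b differed by -1.08. The macrophage-like cells C2, C3, C31 and C36 are among cells 1 to 48, and the part of cell number was not tested. Clk3, a kinase of SR proteins, was higher in macrophage-like (2.45) and in epithelial-like cells (2.39). Over all cells the highest SR-related gene was Clk1, a kinase of SR proteins, with a median of 176 RPKM and detection in all 81 cells, followed by Tra2b and Luc7l3. Of the tissue splicing regulators none was found in 90% of cells. The highest of these by mean was Qk, with a median of 14.6 RPKM and 69 cells at 1 RPKM.

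The ratio of the non-coding row to the coding row tells whether reads fell in the poison exon of Srsf3 and Srsf7 shown above. Reads in shared exons are counted for both rows, so a cell with no read in the added exon has a fixed ratio, 0.850 for Srsf3 and 0.832 for Srsf7, and no cell lay below it. Every excess over this floor is reads in the added exon, given here as a percent of the reads of the coding row. Reads of unspliced RNA across that stretch count as well, and cannot be told apart from the spliced exon in these values.

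Reads in the added exon of Srsf3 were found in 25 of 79 cells (31.6%) with the coding row at 5 RPKM or more, counting an excess of at least 0.5%. A smaller excess, such as 0.255% in C4, was not counted here or below, although it too is reads in the exon. In these 25 cells the excess had a median of 3.48% and ran from 0.549% to 62.7%. The highest values were 62.7% in the shallow cell C43 and 54.9% in C59, and 6 cells had at least 10%. Without the shallow cells 22 of 75 cells had reads there.

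Reads in the added exon of Srsf7 were found in 49 of 75 cells (65.3%). The excess in them had a median of 9.61% and ran from 0.510% to 53.5%, with the highest value in C96. At least 10% was reached in 24 cells and at least 20% in 12. Without the shallow cells the count was 46 of 71. If every transcript held the exon and reads lay evenly along it, the excess would be 17.6% for Srsf3 and 20.2% for Srsf7, a level exceeded by 3 and 12 cells. Of the 3 cells of Srsf3, C43 and C61 are shallow and only C59 is not, while none of the 12 cells of Srsf7 is shallow. In cells above this level the excess was higher than even coverage of such transcripts gives, and the reason was not tested.

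Srsf9, another SR gene with a coding and a non-coding row, had no cell with such reads. The non-coding row stood at its floor of 0.928 in all 63 cells measured, so 0 of 63 cells had reads in its extra stretch, which allows a share of up to 4.76%, counting error only. Even coverage with the stretch in every transcript would give an excess of only 7.75% for Srsf9. Its median level, 30.8 RPKM, was also below those of Srsf3 and Srsf7, so its count cannot be set directly beside theirs.

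The added exons of Srsf3 and Srsf7 were read together about as often as their separate shares give. Of 73 cells with both genes measured, 18 reached 0.5% in both, 7 in Srsf3 only, 30 in Srsf7 only and 18 in neither. The cells in both were 72% of the 25 cells of Srsf3, while 65.8% of all 73 cells had reads in Srsf7. They were 37.5% of the 48 cells of Srsf7, while 34.2% of all had reads in Srsf3. Srsf3 had a median of 143.1 RPKM in cells that reached 0.5% and 208.4 RPKM in the others, whereas Srsf7 had 170.2 and 79.6 RPKM. The ranges overlapped in both genes, and the estimated median depth was 3.98M against 3.52M reads for Srsf3 and 3.81M against 3.36M for Srsf7. Whether depth has a part in these shares was not tested.

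By class, 38 of 61 stromal-like cells had reads in the added exon of Srsf7, with 9 of them at 20% or more. In 4 macrophage-like cells measured the excess was 30.5%, 42% and 22.2% in C2, C31 and C36, and C3, the shallowest cell, was at the floor. In the 5 epithelial-like cells it was 1.81% in C43, 1.05% in C47, 7.35% in C82 and 2.13% in C95, and C91 was at the floor. Among the macrophage-like cells none of the 4 measured had reads in the added exon of Srsf3, and 3 of the 5 epithelial-like cells did, with 62.7%, 11.4% and 8.22% in C43, C47 and C82. Within stromal-like cells, 21 of 34 cycling and 17 of 27 other cells had reads in the added exon of Srsf7, and 12 of 38 and 9 of 26 in that of Srsf3.

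**Figure D3:**
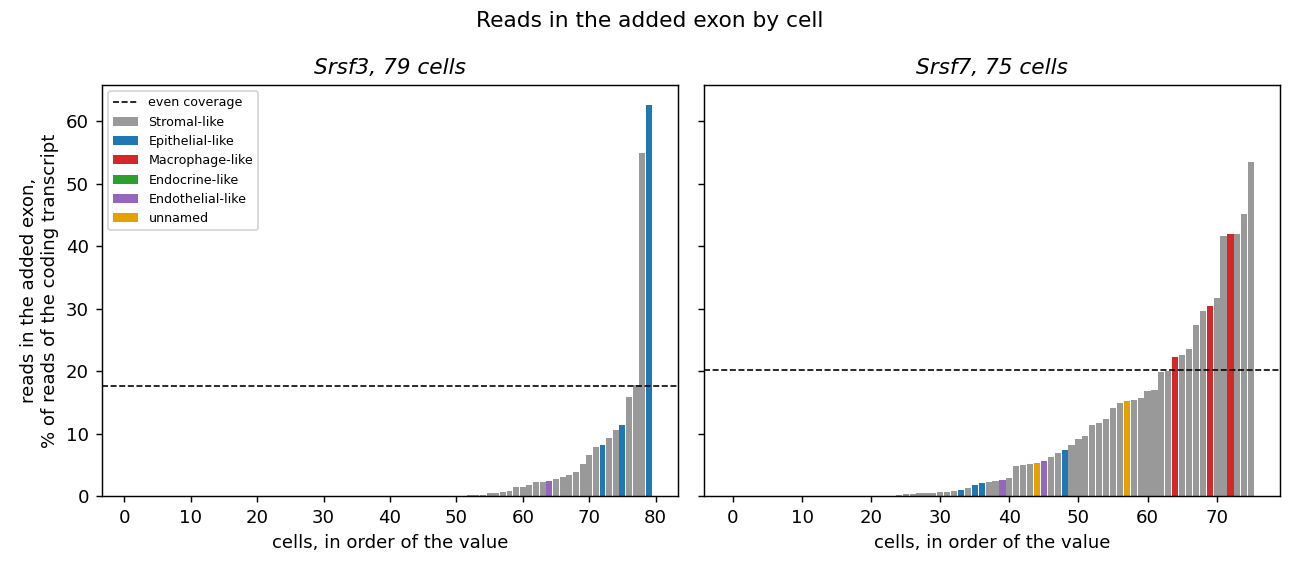
Reads in the added exon of Srsf3 (79 cells) and Srsf7 (75 cells) as a percent of the reads of the coding row, 1 bar per cell in order of the value and coloured by class; the dashed line is the value expected of even coverage with the exon in every transcript, 17.6% and 20.2%. Most cells of Srsf3 lie at 0 and 3 pass the line, while 49 cells of Srsf7 have at least 0.5% and 12 pass it.

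Srsf10, an SR protein that represses splicing when it loses its phosphates, has a pair of rows that end in different last exons. On GRCm38 the upstream one lies at chromosome 4, 135863729 to 135865815, and the downstream one at 135867126 to 135869908. In 78 cells with either row at 5 RPKM or more, the upstream row had a median of 53 RPKM and the downstream row of 24.9 RPKM. The ratio of downstream to upstream row had a median of 0.583 and began at 0.0219, in C28.

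The downstream row was the higher one in 22 of 78 cells, and the ratio was below 0.2 in 15 cells and above 5 in 8. C52 had 259.8 RPKM in the downstream row and was listed at 0 in the upstream row, and C28 had 140.6 RPKM upstream and 3.08 downstream. As reads in shared exons count for both rows, C52 had no read in the exons that the rows share. The search for sequence shared with other genes covered the upstream row only. Whether reads of another source fell in the downstream last exon was not tested. All of the 15 cells with a ratio below 0.2 were stromal-like, as were 5 of the 8 above 5 and 62 of all 78. The endocrine-like cell C56 had 11.1 and 211.9 RPKM, a ratio of 19.1. Pearson's r of both rows over all 81 cells was 0.16 on the log2 scale, a weak value between rows that share their upstream exons.

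**Figure D4:**
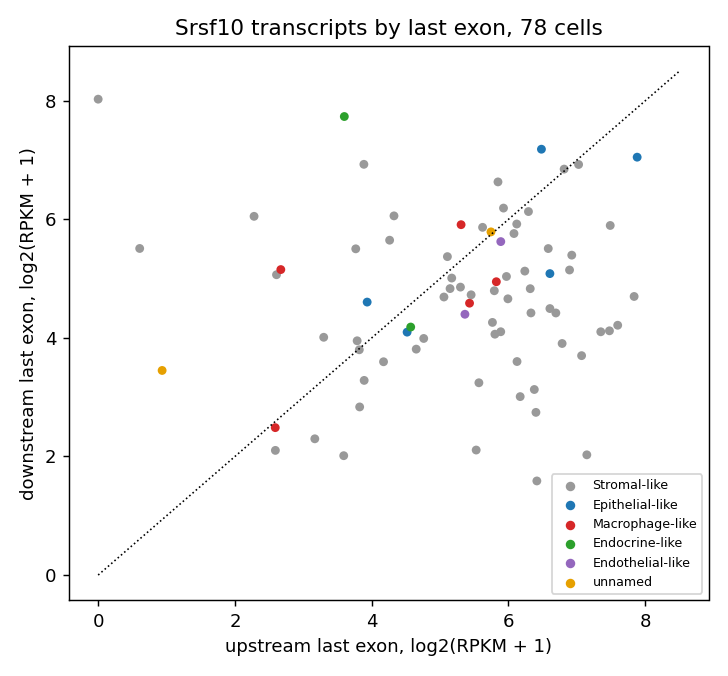
Rows of Srsf10 by last exon in 78 cells, each as log2(RPKM + 1), with the upstream last exon on the x axis, the downstream last exon on the y axis and points coloured by class; the dotted line marks equal values. Of the 78 cells, 22 lie above the line, and the stromal-like cell C52 sits at 0 on the x axis with 259.8 RPKM on the y axis.

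Most other transcript rows of the members told nothing apart. Of the 16 genes with more than 1 row, 6 had a row whose ratio to the highest row varied by more than 1.1-fold from its 10th to its 90th percentile. Of the 32 rows other than the highest, 25 stayed within that. Hnrnpa2b1 was one of the variable ones: its other coding row had 0.421 to 4.32 times the level of the highest row, with a median of 0.730. The others were Srsf7 and Srsf10, described above, and Hnrnpd, Hnrnpa3 and Hnrnpul1.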

How the data were processed

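The deposited table holds 1 value per transcript row and cell, 29510 rows of 22869 symbols with mm9 coordinates. Its unit is not stated. The values made by the authors were taken as RPKM, because value times transcript length (GENCODE vM21) falls on steps of 1 read: per cell, a median of 80.2% of low values, and at the lowest 76.1%, came within 0.15 of whole reads. Every value with 5 decimals ends in 5, as a mean of 2 lanes would. CASAVA 1.8.2 and the build mm9 appear in the submitters' processing notes. Aligner and counter: not given in the sources used here.

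Members and lists were chosen with earlier results of these data known. Levels are log2(RPKM + 1), which understates changes of low genes. A class needs at least 4 markers at 10 RPKM (stromal-like, 3), and endocrine-like goes before epithelial-like. Members at least 1 log2 unit apart between class means were counted. Values are given for the 10 members of highest mean, those found in under 50% of cells, and members apart; of other lists, up to 5 genes of largest difference or highest mean. Cells and transcripts described one by one for added exons and last exons were chosen after their values were seen. No doublet caller was run. Reads are not independent molecules, since no molecular identifiers were used. RefSeq row names matched 60 of 61 member rows to GENCODE. Sequences came from GENCODE vM21 (GRCm38) transcripts. Python 3.11.15, numpy 2.4.6 and pandas 2.3.3 were used. The class difference and the row ratio were tested on simulated data. Alternatives changed the transcript row, depth filter, scaling, pseudocount, detection level, marker count and division of scores, and left out single cells.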

Additional observations from a re-analysis of the deposited data

How the results depend on the processing

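Classes of 5 cells or fewer and 4 shallow cells limit the class counts. Leaving the shallow cells out kept the count of members in 90% of cells at 20. Detection at 10 RPKM left 10 members in 90% of cells, and summing the rows of a gene raised the median level to 5.90. Cycling cells gave 1 lower member with summed rows, 3 higher and 1 lower with a pseudocount of 0.1, 3 higher with medians, 3 higher with the division 2 genes higher and 2 lower with it 2 genes lower. Epithelial-like cells gave 10 higher without shallow cells, 3 higher after rescaling, 2 lower with a pseudocount of 0.1 and 0 lower with one of 10. Without single epithelial-like cells, 5 to 11 were higher and 0 to 1 lower; the count was 11 without C43, and none was lower without C95. Macrophage-like cells gave 1 higher with summed rows, without shallow cells, among genes found in 50% of cells and with medians, 14 lower without shallow cells, and 0 higher and 5 lower with a pseudocount of 10. Without single macrophage-like cells, 0 to 2 were higher (1 without C2 or C3, 0 without C36) and 10 to 15 lower. For immediate-early-high cells, 2 were higher with summed rows, with a pseudocount of 0.1 and with medians, and 2 lower with medians. None was higher or lower with a pseudocount of 10, without shallow cells and with the division 2 genes lower; 0 higher and 2 lower passed with it 2 genes higher, and 0 lower among genes found in 50% of cells. The causes were not tested. Counts of added exon and Srsf10 cells stayed within 1.5 times under each alternative run. The median correlation between members was lowest, 0.024, after rescaling. No paired analysis was possible because the labels give 1 group with no animals.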
